A study of Mus musculus with 6 samples.

Results

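The genes that encode the mouse receptors for the constant region of IgG and the chain through which they signal were followed in cultured cells that had been tachypaced, set against unpaced control cells. The 8 genes were taken by name from the 23060 rows of the expression table: the activating receptor genes Fcgr1, Fcgr3 and Fcgr4, the inhibitory receptor gene Fcgr2b, the signalling chain genes Fcer1g and Tyrobp, the kinase gene Syk and the phosphatase gene Inpp5d. All 8 were in the table. The tachypaced group comprised 3 libraries of total RNA and the control group 3, all labelled as HL-1 cells of WT genotype with heart as the tissue. HL-1 is a mouse line derived from atrial cardiomyocytes. Cells of both groups were grown in Claycomb medium that held norepinephrine, fetal bovine serum, L-glutamine and penicillin with streptomycin, so norepinephrine was shared by both. The labels give neither the pacing rate nor its duration, and they do not say whether replicates came from separate cultures, so the p-values refer to the variation among these 6 libraries alone, and that variation may be technical. The study was designed to ask how expression changed after tachypacing.

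Fc gamma receptors bind the antibody that coats a particle or forms an immune complex. The activating receptors signal through the FcR gamma chain, a small partner whose paired tyrosines (the ITAM) are phosphorylated by Src family kinases and then hold the kinase SYK, which starts calcium release, actin remodelling and phagocytosis. The inhibitory receptor carries a single-tyrosine motif (the ITIM) that recruits the phosphatase SHIP1, the product of Inpp5d, and so dampens signals started by the activating receptors on the same cell. Macrophages use this balance to set how strongly they answer IgG.

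A few short coding stretches are printed because they carry the signalling motifs of the genes described here, and a longer one because it bears on how reads of Fcgr2b and Fcgr3 can be told apart. In the motif stretches the capitals mark the tyrosine codons. The stretches were read from GENCODE M21 transcripts on GRCm38, 5′ to 3′ on the coding strand. The ITAM codons of Fcer1g (coding bases 187 to 243) lie in a chain of 86 codons, with tyrosines at codons 65 and 76. Those of Tyrobp (coding bases 268 to 324) lie in a chain of 114 codons, with tyrosines at codons 92 and 103. The ITIM stretch of Fcgr2b (coding bases 934 to 981) has its tyrosine at codon 319 of 340.
Fcer1g ITAM: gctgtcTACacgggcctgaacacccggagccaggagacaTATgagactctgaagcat
Tyrobp ITAM: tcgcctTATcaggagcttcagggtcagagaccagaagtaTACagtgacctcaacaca
Fcgr2b ITIM: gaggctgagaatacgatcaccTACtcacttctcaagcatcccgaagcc
Longest run shared by Fcgr2b and Fcgr3: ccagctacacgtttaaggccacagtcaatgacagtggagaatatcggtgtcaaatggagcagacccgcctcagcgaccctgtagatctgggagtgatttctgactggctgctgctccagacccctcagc

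The last of these is 129 bases long and is identical in Fcgr2b (coding bases 278 to 406) and Fcgr3 (coding bases 263 to 391). Over 781 aligned coding bases the pair was 85.9% identical, while the other 5 pairs among the 4 receptor genes were 60.5% to 66.2% identical, with identical runs of 9 to 14 bases. Of all 50-base words in the coding sequence of Fcgr3, 22.1% were also found in Fcgr2b, and 17.1% of the Fcgr2b coding words were found in Fcgr3 or in other genes. The part of Fcgr2b that holds the ITIM has no partner in Fcgr3: the last 143 of its 1020 coding bases were unaligned. Over whole transcripts, 395 of the 3708 words of Fcgr2b (10.7%) and 166 of the 1627 words of Fcgr3 (10.2%) occurred in other genes. Those of Fcgr2b were found in many genes besides Fcgr3. How the authors' counting divided such reads is not given in the sources used here. The levels of Fcgr2b and of Fcgr3, the lower of the pair, are therefore uncertain. No 50-base word of the other 6 genes' transcripts occurred in another gene.

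**Figure D1:**
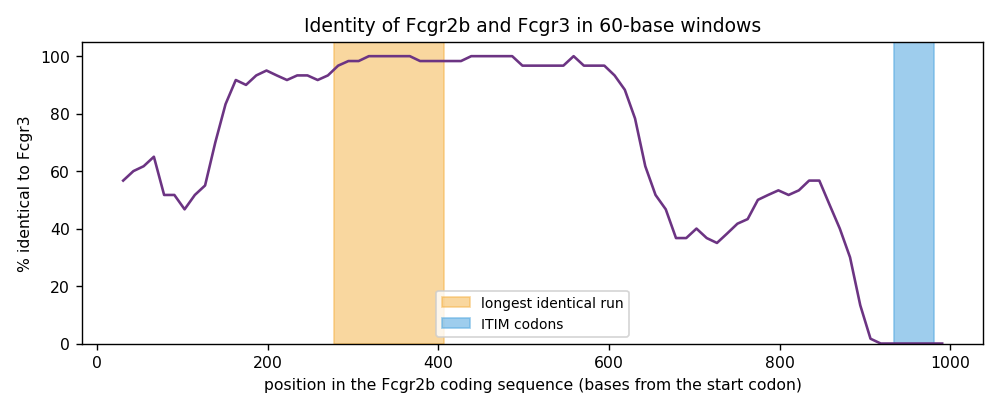
Percent of bases identical between the Fcgr2b and Fcgr3 coding sequences in windows of 60 bases (vertical axis) against the position in the Fcgr2b coding sequence in bases from the start codon (horizontal axis). Windows of at least 90% identity span bases 133 to 636, around the longest identical run (orange), and identity ends before the ITIM codons (blue).

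Levels are given as deposited in FPKM, fragment numbers scaled to transcript length and library size. Library sums were 411050 to 432244 FPKM, and the number of reads behind a value is unknown. The label HL-1 was checked against markers: of 15 cardiomyocyte genes, 7 were listed at 0 in all libraries (Myh6, Actc1, Myl7, Nppb, Nkx2-5, Gata4 and Pln) and Tnni3 alone averaged at least 1 FPKM, so the defining transcripts of atrial muscle were listed at or near 0. A listed 0 can be a failed estimate, as 7068 rows, among them the broadly expressed kinase gene Yes1, were at 0 in all libraries. The 10 macrophage markers were all detected, and their summed level was 1253 to 1391 FPKM in tachypaced libraries and 993 to 1138 FPKM in control libraries, with no overlap. Of the 8 macrophage markers tested, Lyz2 and Cd14 rose (log2 fold change 0.50 and 0.53) and 0 fell by limma, while Csf1r averaged 94.8 FPKM in tachypaced and 95.5 FPKM in control libraries. Summed markers of B cells, mast cells, NK cells, neutrophils, dendritic cells, T cells, fibroblasts and endothelial cells stayed at or below 1.25 FPKM in every library, and platelet markers at or below 2.41 FPKM. The part of the macrophage markers in the results below was not tested. Control replicate 1 stood apart: over the 10361 genes tested it lay nearer to each of the 3 tachypaced libraries (root mean square difference 0.175 to 0.219 on the log2 scale) than to control replicates 2 and 3 (0.222 and 0.244).

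Fcgr2b and Fcer1g rose in tachypaced cells, by 1.95-fold and 1.27-fold in mean FPKM. Tyrobp, Syk and Inpp5d did not pass the test, and the 3 activating receptor genes lay under the level at which genes were tested. A gene was called where limma, fitted to log2(FPKM + 1) of every gene that averaged 1 FPKM or more, gave a Benjamini-Hochberg adjusted p under 0.05. Of the 8 genes, 5 were tested, 2 of them were called higher and 0 lower, with 3 and 0 at an unadjusted p under 0.05, which 1116 (10.8%) of all tested genes passed as higher and 2008 (19.4%) as lower. Of all tested genes 238 were called higher (2.3%) and 334 lower (3.22%), a split that another scaling, the median of ratios, turned to 268 higher and 180 lower. Every tachypaced library lay above every control library for 3 of the 5 tested genes, where 12.6% of all tested genes did so and 22.4% lay wholly below. Since RNA of whole cultures was measured, a change in the number of cells of a type and a change in RNA per cell cannot be told apart.

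**Figure D2:**
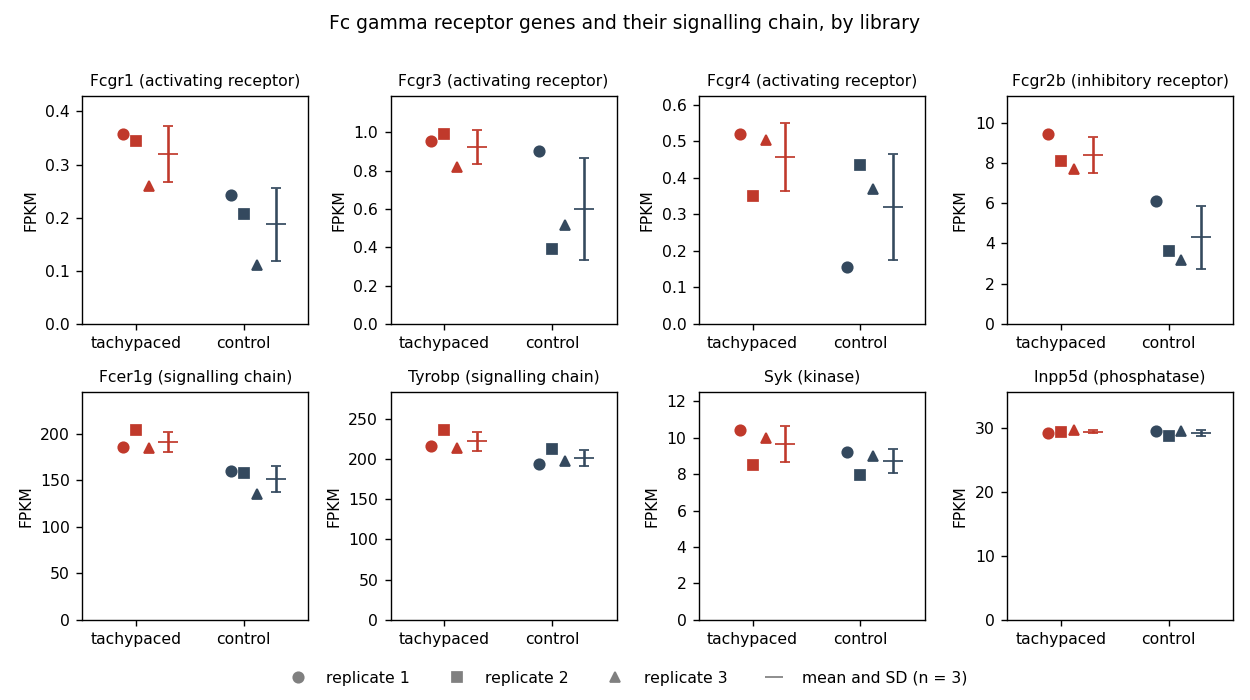
FPKM of each of the 8 genes in every library (vertical axes, from 0), with tachypaced libraries in red left of control libraries in dark blue, marker shapes for the replicate numbers, and bars for the mean and SD (n = 3 each). Fcgr2b, Fcer1g, Tyrobp and Fcgr1 show no overlap between groups, and the scales run from below 1 FPKM for the activating receptors to 236 FPKM for Tyrobp.

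Fcgr2b encodes FcγRIIB, the only inhibitory receptor among the classical mouse Fc gamma receptors. It lies at chr1:170958617-170976547 (GRCm38, minus strand). Its level was 9.42, 8.12 and 7.71 FPKM in tachypaced replicates 1, 2 and 3, against 6.10, 3.64 and 3.20 FPKM in control replicates 1, 2 and 3. The groups did not overlap, and control replicate 1 was the highest control, at 0.63 of the distance from the mean of the other 2 controls to the tachypaced mean. Means were 8.42 ± 0.893 FPKM in tachypaced and 4.32 ± 1.56 FPKM in control libraries (SD, n = 3 each). The log2 fold change of FPKM + 1 was 0.86 (SE 0.18, 95% interval 0.46 to 1.26, limma adjusted p = 0.0435), the 15th largest of the 10361. Without control replicate 1 it was 1.09 (limma adjusted p = 0.000448), and leaving out any 1 of the other 5 libraries ended the call (log2 fold change 0.71 to 0.91, limma adjusted p 0.0741 to 0.173).

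Fcer1g encodes the FcR gamma chain, which the activating Fc gamma receptors need to reach the cell surface and to signal, and which other immune receptors share. It lies at chr1:171229572-171234365 (minus strand). Its level was 186, 204 and 185 FPKM in the tachypaced libraries and 160.1, 158 and 135 FPKM in the control libraries, in replicate order, with every tachypaced library above every control. The mean was 192 ± 10.8 FPKM in tachypaced and 151 ± 13.9 FPKM in control libraries, at the 96.9th percentile of the tested genes. The log2 fold change was 0.34 (SE 0.075, 95% interval 0.17 to 0.51, limma adjusted p = 0.0448), and 3.14% of all tested genes had one at least as large. It was 0.39 without control replicate 1 (limma adjusted p = 0.00672), and leaving out any 1 of the other 5 libraries ended this call as well (0.27 to 0.38, limma adjusted p 0.0769 to 0.173).

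Tyrobp encodes DAP12, the other ITAM chain of myeloid cells, which pairs with receptors such as TREM2 rather than with the Fc gamma receptors. It lies at chr7:30413760-30417585 (plus strand). It had 217, 236 and 214 FPKM in tachypaced libraries and 194, 212 and 198 FPKM in control libraries. The lowest tachypaced value was just above the highest control value, so the groups did not overlap. The means were 222 ± 12.2 FPKM in tachypaced and 201 ± 9.74 FPKM in control libraries, and the log2 fold change of 0.14 (95% interval 0.0069 to 0.28) did not pass (limma adjusted p = 0.150). At the 97.6th percentile of tested genes it was the most abundant of the 8.

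Syk encodes the cytosolic kinase that docks on a phosphorylated ITAM, and lies at chr13:52583173-52648792 (plus strand). It had 10.4, 8.52 and 9.98 FPKM in tachypaced libraries and 9.23, 7.97 and 8.97 FPKM in control libraries, which overlapped. Its log2 fold change was 0.13 (95% interval −0.07 to 0.33, limma adjusted p = 0.350). Inpp5d encodes SHIP1, the lipid phosphatase that the ITIM of FcγRIIB recruits, and lies at chr1:87620312-87720507 (plus strand). Its level was 29.2, 29.4 and 29.6 FPKM in tachypaced libraries and 29.4, 28.7 and 29.6 FPKM in control libraries. The groups overlapped and the log2 fold change was 0.01 (95% interval −0.10 to 0.12, limma adjusted p = 0.916). The upper ends of these intervals were 0.33 for Syk and 0.12 for Inpp5d on the log2 scale. These ends come from this fit only. The highest estimates of the alternatives, 0.21 for Syk and 0.05 for Inpp5d, lay below them.

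**Figure D3:**
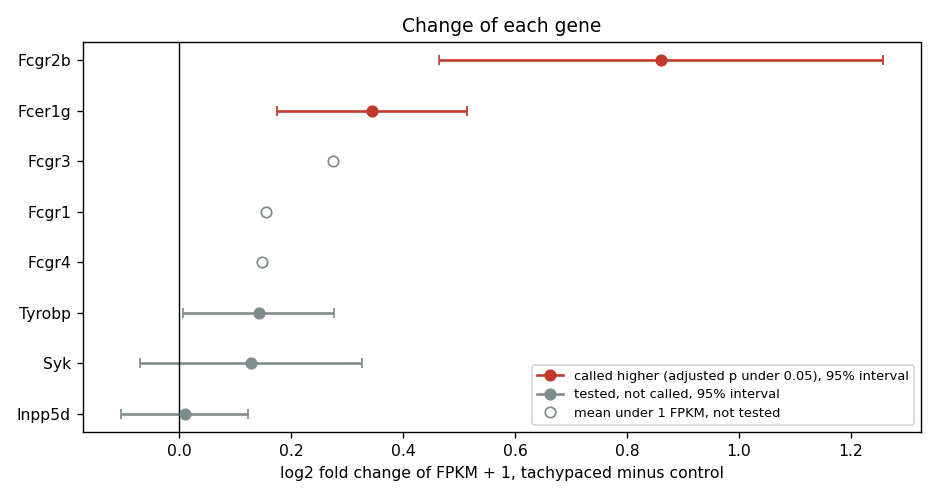
Log2 fold change of FPKM + 1, tachypaced minus control (horizontal axis), for each gene (vertical axis), with 95% intervals from limma for the 5 tested genes (3 libraries a group). The intervals of Fcgr2b, Fcer1g and Tyrobp lie above 0, the first pair (red) was called, and the open circles of Fcgr3, Fcgr1 and Fcgr4 are differences that were not tested.

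The activating receptor genes were listed below 1 FPKM in every library. They were outside the test, so their values are a description, and a difference on the log2(FPKM + 1) scale understates that of such low levels. Fcgr1, the gene of the high-affinity receptor FcγRI (chr3:96282909-96293969, minus strand), had 0.357, 0.344 and 0.260 FPKM in tachypaced libraries and 0.244, 0.208 and 0.111 FPKM in control libraries, without overlap. Among the 2429 genes with a mean of 0.1 to 1 FPKM, 12.8% lay wholly above in the same way. Fcgr3, the gene of the low-affinity receptor FcγRIII (chr1:171051174-171064935, minus strand), had 0.957, 0.990 and 0.821 FPKM in tachypaced libraries and 0.901, 0.389 and 0.517 FPKM in control libraries. The groups overlapped through control replicate 1, which stood beside the tachypaced values. Fcgr4, the gene of FcγRIV (chr1:171018920-171029761, plus strand), had 0.519, 0.351 and 0.504 FPKM in tachypaced libraries and 0.156, 0.435 and 0.370 FPKM in control libraries, again with overlap, and here control replicate 1 was the lowest library. The differences were 0.15, 0.27 and 0.15 for Fcgr1, Fcgr3 and Fcgr4, and 0.57, 0.60 and 0.46 with a pseudocount of 0.1. On leaving out a library they ran from 0.11 to 0.19 for Fcgr1, from 0.18 (without control replicate 2) to 0.40 for Fcgr3, and from 0.05 (without control replicate 1) to 0.21 for Fcgr4. All 8 genes had a positive difference, while 4259 of all 10361 tested genes were positive. That of Inpp5d, at 0.01, turned to −0.0041 without control replicate 2. The median was 0.14 over the 5 tested, against −0.04 over all tested genes.

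FPKM is scaled to transcript length, so the genes can be set side by side within a library. Inhibitory Fcgr2b made up most of the receptor transcript: it was 83.7%, 82.8% and 83.0% of the summed FPKM of the 4 receptor genes in tachypaced libraries and 82.4%, 77.9% and 76.2% in control libraries. Those shares averaged 83.2% ± 0.481 in tachypaced and 78.9% ± 3.21 in control libraries (SD, n = 3 each), a difference of 4.30 percentage points. They depend on how reads were divided between Fcgr2b and Fcgr3, which is unknown. Control replicate 1 lay close to the lowest tachypaced library, and without it the difference was 6.09 percentage points. The summed receptor level was 10.1 ± 1.02 FPKM in tachypaced and 5.43 ± 1.73 FPKM in control libraries, and that of the 3 activating genes was 1.70 ± 0.125 FPKM in tachypaced and 1.11 ± 0.165 FPKM in control libraries.

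The shared chain was far more abundant than the receptors. Fcer1g was 16.6, 20.8 and 19.9 times the receptor sum in tachypaced libraries and 21.6, 33.9 and 32.2 times in control libraries, so the lowest control ratio was just above the highest tachypaced ratio. Inpp5d was 3.10, 3.61 and 3.84 times Fcgr2b in tachypaced libraries and 4.82, 7.86 and 9.24 times in control libraries, while Inpp5d itself ran from 28.7 to 29.6 FPKM over all 6 libraries. Tyrobp was 1.16 ± 0.00322 times Fcer1g in tachypaced and 1.34 ± 0.128 times in control libraries. Inpp5d was 3.07 ± 0.331 times Syk in tachypaced and 3.36 ± 0.210 times in control libraries.

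**Figure D4:**
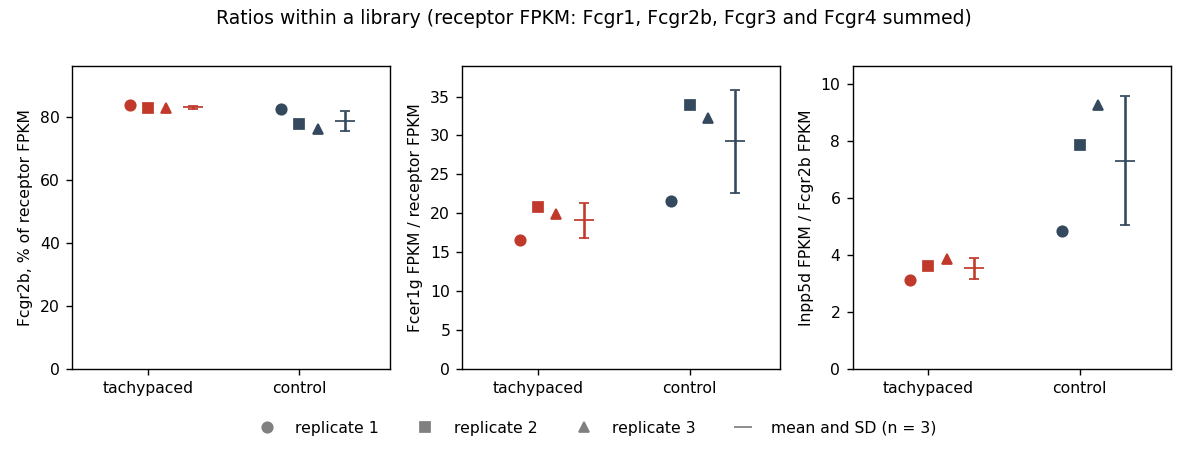
Ratios of FPKM within each library (vertical axes, from 0): Fcgr2b as a percent of the summed FPKM of the 4 receptor genes, Fcer1g over that sum, and Inpp5d over Fcgr2b, for tachypaced (red) and control (dark blue) libraries with mean and SD (n = 3 each). In all 3 panels control replicate 1 (circle) is the control library nearest to the tachypaced ones.

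The promoters of the called pair are printed because both genes rose. They are the 250 bases before the RefSeq gene start on GRCm38.p6, 5′ to 3′ on the gene's strand, with capitals for matches to motifs searched on both strands: GGAAGT, the core of ETS factors such as PU.1, TGANTCA of AP-1, and the NF-kB form of GGGA and CC with any 4 bases between them. The Fcgr2b promoter is chr1:170976072-170976321 and that of Fcer1g is chr1:171234350-171234599, both on the minus strand. The Fcgr2b window lies inside the GENCODE span of the gene, whose 5′ end is at 170976547. RefSeq and GENCODE thus differ on where Fcgr2b starts, and the window is a promoter by the RefSeq start only.
Fcgr2b promoter: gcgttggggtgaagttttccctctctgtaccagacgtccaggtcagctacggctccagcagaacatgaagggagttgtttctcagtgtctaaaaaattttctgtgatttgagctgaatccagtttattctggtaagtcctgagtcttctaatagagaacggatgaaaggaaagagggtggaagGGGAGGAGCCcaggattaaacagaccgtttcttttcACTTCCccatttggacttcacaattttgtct
Fcer1g promoter: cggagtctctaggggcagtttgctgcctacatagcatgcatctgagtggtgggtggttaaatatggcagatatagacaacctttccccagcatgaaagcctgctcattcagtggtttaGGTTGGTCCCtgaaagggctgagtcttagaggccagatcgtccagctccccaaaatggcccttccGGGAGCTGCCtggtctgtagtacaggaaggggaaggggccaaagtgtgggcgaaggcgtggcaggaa

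The Fcgr2b promoter held GGGAGGAGCC, a match to the NF-kB form, and ACTTCC, which is GGAAGT on the other strand. The Fcer1g promoter held the NF-kB form once on each strand and none of the other motifs. Of the 32851 promoters of the same length in the table, 17.6% held the NF-kB form, 19.7% held GGAAGT and 6.75% held TGANTCA. Of the 7 genes matched in the table, Fcgr1, Fcgr4, Fcgr2b and Inpp5d had GGAAGT, Fcgr3, Fcgr4, Fcgr2b and Fcer1g had the NF-kB form, and none had TGANTCA in these windows. A match is a description of letters only.

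Fcgr2b, Fcgr4, Fcgr3 and Fcer1g lie within 276 kb of each other on chromosome 1. Among 19 other genes there and in 100 kb on either side, 11 were tested and limma called 0, with 2 at an unadjusted p under 0.05. Their log2 fold changes ran from −0.21 (Usp21) to 0.24 (Apoa2), with a median of 0.06.

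Beyond the 8 genes, 10 lists of the pathway named 145 genes, of which 103 were tested: 5 were called higher (4.85%) and 4 lower (3.88%), against 2.3% and 3.22% of all tested genes. Their median log2 fold change was −0.03, against −0.04 over all tested genes. Of the 9 calls, 7 lay in the lists of paired receptors (13 tested), ITIM receptors (12 tested) and ITIM phosphatases and brakes (14 tested). Those 7 include Lilrb4a and Lilr4b, between which reads may be divided. The other calls were Plcg1 and Gsn, both lower. Leaving out any 1 library other than control replicate 1 ended all 9 calls, and without control replicate 1 there were 21 higher and 18 lower.

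The list of receptors that pair with the FcR gamma chain or DAP12, which also held the adaptor gene Hcst, had 13 tested genes. Of these 2 were called higher (15.4%), 1 lower (7.69%) and 10 not called, with a median of 0.21. All tested genes gave 2.3% and 3.22%. Unadjusted p-values under 0.05 by limma were reached by 8 as higher (61.5%) and 1 as lower (7.69%), against 10.8% and 19.4% of all tested genes. Clec4e, the gene of the FcR gamma partner Mincle, which senses glycolipids of mycobacteria, averaged 92.4 ± 4.39 FPKM in tachypaced and 63.4 ± 12.4 FPKM in control libraries (log2 fold change 0.55, limma adjusted p = 0.0435). Oscar, a collagen-binding co-stimulator of osteoclasts that also uses the FcR gamma chain, averaged 1.79 ± 0.0679 FPKM in tachypaced and 1.09 ± 0.160 FPKM in control libraries (0.42, limma adjusted p = 0.0435). Treml4 fell to 0.939 ± 0.238 FPKM in tachypaced libraries, against 1.68 ± 0.150 FPKM in control libraries (−0.47, limma adjusted p = 0.0460). Trem2, a lipid-sensing partner of DAP12, averaged 91.9 ± 9.49 FPKM in tachypaced and 78.0 ± 5.99 FPKM in control libraries and did not pass (limma adjusted p = 0.107).

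The list of other ITIM receptors of myeloid cells had 12 tested genes, of which 2 were called higher (16.7%) and 0 lower, against 2.3% and 3.22% of all tested genes. At an unadjusted p under 0.05 there were 5 higher (41.7%) and 1 lower (8.33%), against 10.8% and 19.4% of all tested genes. Those 5 include Lilr4b and Siglec1, which lack an ITIM, so the share is that of the list and not of ITIM receptors alone. The called genes were the near-identical neighbours Lilrb4a and Lilr4b, between which reads may be divided. Of the pair, Lilr4b, known as gp49A, lacks the ITIM that Lilrb4a carries. Lilrb4a, an inhibitory receptor of the leukocyte immunoglobulin-like family, averaged 238 ± 33.5 FPKM in tachypaced and 127 ± 36.0 FPKM in control libraries (0.92, limma adjusted p = 0.0435). Lilr4b averaged 246 ± 19.8 FPKM in tachypaced and 130.0 ± 36.5 FPKM in control libraries (0.95, limma adjusted p = 0.0435). Sirpa, whose product brakes phagocytosis on binding CD47, averaged 45.6 ± 2.27 FPKM in tachypaced and 40.4 ± 2.12 FPKM in control libraries and did not pass (limma adjusted p = 0.104).

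The list of ITIM phosphatases and brakes had 14 tested genes, of which 1 was called higher (7.14%), 1 lower (7.14%) and 12 not. All tested genes gave 2.3% and 3.22%. At an unadjusted p under 0.05 by limma there were 3 higher (21.4%) and 2 lower (14.3%), against 10.8% and 19.4% of all tested genes. Dok3, an adaptor that recruits SHIP1 and restrains SYK signalling, averaged 89.2 ± 2.80 FPKM in tachypaced and 73.8 ± 5.06 FPKM in control libraries (0.27, limma adjusted p = 0.0458). Csk, the kinase that keeps Src family kinases inactive, fell to 8.34 ± 0.868 FPKM in tachypaced libraries, against 11.7 ± 1.61 FPKM in control libraries (−0.43, limma adjusted p = 0.0487). Ptpn6, the gene of the phosphatase SHP-1, had 72.3 FPKM in tachypaced and 70.6 FPKM in control libraries (limma adjusted p = 0.679).

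Upstream and downstream steps gave few calls. The 4 tested Src family kinases all had positive values with a median of 0.16 and 0 calls by limma (2 higher and 0 lower at an unadjusted p under 0.05). Lyn, the Src family kinase that phosphorylates both ITAM and ITIM, averaged 61.3 ± 1.52 FPKM in tachypaced and 52.8 ± 7.12 FPKM in control libraries (0.22, limma adjusted p = 0.128), and control replicate 1 had 61.1 FPKM against 48.6 and 48.8 FPKM in the other 2 controls. Of the 7 tested phospholipase C gamma and protein kinase C genes, limma called 0 higher and 1 lower (14.3%, against 3.22% of all tested genes). At an unadjusted p under 0.05 there were 0 higher and 3 lower (42.9%, against 19.4% of all tested genes). The called gene was Plcg1, whose product cleaves PIP2 to release calcium. It averaged 10.8 ± 0.699 FPKM in tachypaced and 14.2 ± 1.13 FPKM in control libraries (−0.37, limma adjusted p = 0.0435). Plcg2, the main form of this enzyme in myeloid cells, averaged 21.8 ± 0.949 FPKM in tachypaced and 26.9 ± 2.93 FPKM in control libraries and did not pass (−0.29, limma adjusted p = 0.0617).

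The remaining lists were read as counts. Of 17 tested Vav, Rac and actin nucleation genes, limma called 0 higher and 1 lower (5.88%, against 3.22% of all tested genes). At an unadjusted p under 0.05 there were 1 higher and 2 lower. The called gene was Gsn, which encodes the actin-severing protein gelsolin, at 203 ± 7.07 FPKM in tachypaced and 245 ± 18.1 FPKM in control libraries (−0.27, limma adjusted p = 0.0473). Class I PI3 kinase steps had 0 calls among 14 genes by limma and 13 negative values (0 higher and 2 lower at an unadjusted p under 0.05), while 6102 of all 10361 tested genes were negative. ITAM adaptors had 0 calls among 12 (2 and 2 at an unadjusted p under 0.05), and MAP kinase steps 0 among 8 (0 and 2). With median of ratios scaling Plcg1 alone stayed called lower, as Csk (limma adjusted p = 0.0548), Gsn (0.0628) and Treml4 (0.0508) missed the threshold.

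**Figure D5:**
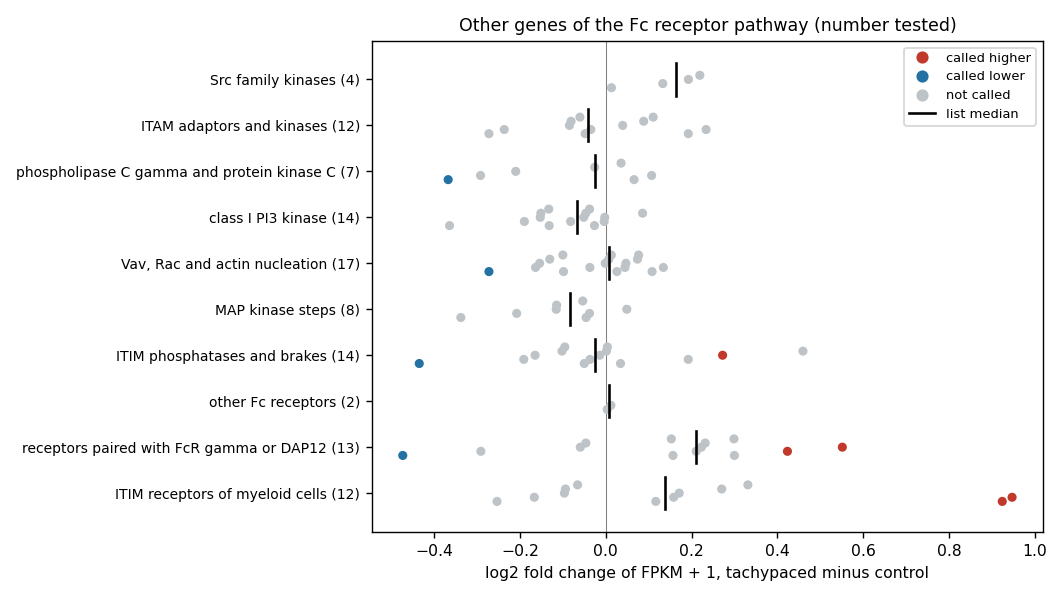
Log2 fold change of FPKM + 1, tachypaced minus control (horizontal axis), for each tested gene of the 10 pathway lists (rows, number tested in parentheses), with called genes in red (higher) or blue (lower), other genes in grey and the list median as a black bar. The 5 genes called higher lie in the lists of paired receptors, of ITIM receptors and of ITIM phosphatases and brakes, and the outermost pair is Lilrb4a and Lilr4b.

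Of 14 other Fc receptor genes, 6 were listed at 0 in all libraries and 2 were tested, with 0 called by limma and 0 at an unadjusted p under 0.05. Fcgrt, the gene of the neonatal receptor that recycles IgG, had 17.3 ± 0.433 FPKM in tachypaced and 17.2 ± 1.30 FPKM in control libraries (limma adjusted p = 0.978). Fcrl1, known mainly from B cells, had 15.6 FPKM in tachypaced and 15.4 FPKM in control libraries (limma adjusted p = 0.941), while the B cell markers summed to at most 0.706 FPKM. Fcer1a and Ms4a2, the IgE receptor subunits that share the FcR gamma chain in mast cells, were listed at 0 throughout.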

How the data were processed

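Values were used as the authors deposited them, in FPKM per gene for each of the 6 libraries, made with a SMARTER mRNA kit per the labels' protocols. The submitters' processing notes name GRCm38 (mm10). Which programs aligned and counted reads, and whether strand was used, is not given in the sources used here. Low values showed no step of whole reads (no more than 5.15% of their ratios between libraries shared 1 bin, 0.05 wide in log2), and depth, intervals from counts and detection limits are therefore not given.

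Groups came from the sample labels. Genes averaging 1 FPKM or more (10361) were tested on log2(FPKM + 1) with limma 3.58.1 in R 4.3.3, using lmFit and eBayes with a trend in the variance and no covariates. Differences are tachypaced minus control, tests are two-sided, and p-values were adjusted over all tested genes by Benjamini-Hochberg with a threshold of 0.05. The code was first run on simulated data. With 3 against 3 libraries an exact permutation test reaches no p under 0.1, and none was used. Alternatives were a pseudocount of 0.1, no filter, a minimum of 5 FPKM, scaling by median of ratios, normalization to common quantiles, no trend, a replicate block and leaving out each library.

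The members, the 10 pathway lists, the 11 marker lists and the tests were chosen with earlier results of these data known. Named were the 8 members, the called genes of each list (at most 4), and the 5 tested genes, predicted models left out, whose profile over the 6 libraries was nearest to that of Fcgr2b. Genes named without a call, and the genomic neighbours, were chosen after their values were seen. Positions and transcripts came from GENCODE M21 and promoters from RefSeq, matched by symbol with Python 3.11.15, pandas 2.3.3 and biopython 1.88.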

Additional observations from a re-analysis of the deposited data

How the results depend on the processing

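The depth behind these FPKM values is unknown, and 3 libraries a group limit the precision. The Fcgr2b and Fcer1g estimates stayed positive under all 13 alternatives (log2 fold change 0.71 to 1.09 and 0.27 to 0.39), with an unadjusted limma p of at most 0.00518 and 0.00707. Their adjusted p ranged from 0.000448 to 0.173 and from 0.00672 to 0.173. The count of 2 members called higher was 0 with no filter on low values (limma adjusted p 0.127 and 0.126), with quantile normalization (0.0520 for both) and without the trend (0.0608 and 0.0639), and 0 to 2 on leaving out a library; 0 were called lower throughout. Over all genes, calls were 0 higher and 0 lower with no filter (3488 at an unadjusted p under 0.05), 13 and 4 with quantile normalization, 2 and 0 without the trend (3057), 268 and 180 with the median of ratios, and 1 to 1160 and 0 to 1948 on leaving out a library, the highest being without control replicate 1. Pathway genes gave 0 and 0 with no filter, quantile normalization or no trend, 1 lower with the median of ratios, and 0 to 21 and 0 to 18 on leaving out a library. On leaving out a library Inpp5d ran from −0.0041 (without control replicate 2) to 0.0177, and scaling by the median of ratios gave 0.0509. The Fcgr2b share difference ran from 2.98 to 6.09 percentage points. The causes were not tested.

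Deviations of same-numbered libraries correlated by 0.0615, −0.0340 and 0.157, so the data show no pairing common to the 3 numbers, and the labels name none. With a replicate block limma called 2 members higher, 591 genes lower among all tested and 8 pathway genes lower, and 334 and 5 higher.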

Other observations

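Over the 6 libraries the 5 genes whose profile lay nearest to that of Fcgr2b were Lilr4b, Mpeg1, Cd53, Gadd45a and Soat2, by the root mean square difference of mean-centred log2(FPKM + 1). They were picked from 9690 genes, predicted models left out. Their distances were 0.0752, 0.0778, 0.0887, 0.100 and 0.103, against a median of 0.521 over all other tested genes. The size of the Fcgr2b profile itself was 0.495. All 5 were called higher by limma in the same libraries from which they were chosen, so their calls add no support. Mpeg1, the gene of the macrophage pore-forming protein perforin-2, averaged 52.7 ± 3.36 FPKM in tachypaced and 31.7 ± 9.67 FPKM in control libraries. Cd53, a tetraspanin gene of leukocytes, averaged 131 ± 11.2 FPKM in tachypaced and 74.6 ± 22.3 FPKM in control libraries. Gadd45a, a stress-induced growth arrest gene, averaged 13.2 ± 0.825 FPKM in tachypaced and 7.66 ± 1.92 FPKM in control libraries. Soat2, which encodes a cholesterol-esterifying enzyme, averaged 9.55 ± 0.801 FPKM in tachypaced and 5.41 ± 1.91 FPKM in control libraries. Fcer1g was 311th by the same measure, at a distance of 0.333.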
